A study of Homo sapiens with 2 samples.

Results

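The S100 and annexin genes encode a family of small calcium sensors and a family of proteins that bind membranes when calcium is present. Members were the protein-coding genes of the count tables whose symbol is S100A or ANXA followed by a number alone. S100B, S100G, S100P and S100Z were included as well. The rule itself used names and no measured value, but it was set with earlier results of these data known. It gave 31 genes of 58302, of which 19 were S100 genes and 12 were annexins. S100A7A and S100A7L2, which carry a further letter after the number, fell outside the rule and had no count in either library. RNA was sequenced from HK-2, an immortalised human kidney line of proximal tubule origin, grown with 10% fetal bovine serum. The library labelled Ad-Bmal1 came from cells infected for 24 h with an adenovirus that carried the coding sequence of the clock transcription factor Bmal1. The library labelled Ad-GFP came from cells infected for as long with an adenovirus that carried green fluorescent protein, so no library came from uninfected cells. The written-out line name in the labels ends in 3 with Ad-Bmal1 and in 2 with Ad-GFP, and both were taken to mean HK-2.

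S100 proteins are small, mostly dimeric proteins with EF-hand calcium-binding loops, and calcium opens a surface through which they grip target proteins. Annexins bind acidic phospholipids of membranes when calcium is present, and take part in vesicle traffic, membrane repair and plasmin formation at the cell surface. Members of the families bind each other, the best known complex being that of annexin A2 with S100A10. In the kidney, S100A6 and annexin A2 are known from injured and regenerating tubule epithelium.

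Each group had 1 library, so differences have no replicate check and hold for this pair of libraries, not for the conditions. The library labelled Ad-Bmal1 held 20051735 counts and the library labelled Ad-GFP 20032652. Counts were scaled for library size (CPM), and ratios are those of the library labelled Ad-Bmal1 over the library labelled Ad-GFP, each with a 95% interval for counting error alone. Genes at 1 CPM or more in either library are called measured. BMAL1, the gene the vector was to raise, had 133 counts in the library labelled Ad-Bmal1 and 204 in the library labelled Ad-GFP, a ratio of 0.667 (0.532 to 0.834). The target therefore went against the label, and each direction given for a member carries that limit. Exchanged labels would invert every ratio, and whether they were exchanged, or whether transcripts of the vector were counted, was not tested. Of 17 proximal tubule markers 7 were measured, with the kidney factor PAX8 and the enzyme GGT1 among them, while LRP2, SLC22A6 and SLC22A8 were at 0 in both libraries. These markers summed to 1196 CPM in the library labelled Ad-Bmal1 and 985 CPM in the library labelled Ad-GFP. PAX8 and the cadherin CDH6, with most counts among them, had ratios of 1.34 (1.299 to 1.39) and 1.26 (1.21 to 1.31). In bulk RNA, fewer cells of a type and less RNA per cell cannot be told apart.

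The promoters of 5 members are shown as RefSeq gives them on GRCh38.p14, from 250 bases before to 50 bases after the annotated start, 5′ to 3′ on the strand of the gene. They were picked because S100A6 and ANXA2 led their families in counts, S100A10 is the partner of ANXA2, ANXA1 was the abundant member with the lowest ratio, and ANXA6 holds the E-box to which BMAL1 and CLOCK bind. Capitals mark the motifs searched on both strands, which were the E-box CACGTG, the D-box TTANGTAA, the AP-1 element TGANTCA and the TATA box TATAAA.
S100A6 (chr1:153535942-153536241, minus strand): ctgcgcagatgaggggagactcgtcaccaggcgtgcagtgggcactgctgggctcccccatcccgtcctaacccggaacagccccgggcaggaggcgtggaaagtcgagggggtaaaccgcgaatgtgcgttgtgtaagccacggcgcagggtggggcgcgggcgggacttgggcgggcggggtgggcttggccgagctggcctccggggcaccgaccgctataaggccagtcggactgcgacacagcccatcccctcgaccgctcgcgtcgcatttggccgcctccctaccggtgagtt
S100A10 (chr1:151993810-151994109, minus strand): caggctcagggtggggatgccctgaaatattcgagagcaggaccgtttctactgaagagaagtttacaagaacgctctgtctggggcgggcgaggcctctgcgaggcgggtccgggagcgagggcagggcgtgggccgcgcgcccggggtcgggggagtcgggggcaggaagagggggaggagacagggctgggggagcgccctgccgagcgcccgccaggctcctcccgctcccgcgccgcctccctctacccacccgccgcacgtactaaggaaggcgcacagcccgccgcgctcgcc
ANXA2 (chr15:60397937-60398236, minus strand): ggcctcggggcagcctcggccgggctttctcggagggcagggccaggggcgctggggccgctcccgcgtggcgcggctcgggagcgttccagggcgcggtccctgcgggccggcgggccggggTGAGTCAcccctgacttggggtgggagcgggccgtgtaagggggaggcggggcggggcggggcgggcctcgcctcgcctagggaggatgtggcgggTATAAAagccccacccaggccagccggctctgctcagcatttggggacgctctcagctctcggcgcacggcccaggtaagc
ANXA1 (chr9:73151615-73151914, plus strand): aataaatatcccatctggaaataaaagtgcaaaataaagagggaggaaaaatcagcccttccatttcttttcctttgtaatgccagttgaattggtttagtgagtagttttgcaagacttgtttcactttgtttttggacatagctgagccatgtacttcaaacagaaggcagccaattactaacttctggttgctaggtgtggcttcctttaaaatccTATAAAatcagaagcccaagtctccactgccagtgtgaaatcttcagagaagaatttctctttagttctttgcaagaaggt
ANXA6 (chr5:151157730-151158029, minus strand): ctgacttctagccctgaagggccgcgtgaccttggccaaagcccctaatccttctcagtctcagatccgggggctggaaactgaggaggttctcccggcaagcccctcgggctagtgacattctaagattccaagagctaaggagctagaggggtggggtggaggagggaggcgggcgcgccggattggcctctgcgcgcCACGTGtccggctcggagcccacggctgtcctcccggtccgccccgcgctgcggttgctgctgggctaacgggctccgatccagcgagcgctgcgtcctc

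Promoters were on hand for 28 of the 31 genes, in 39 windows because several genes have more than 1 start. The E-box stood in 2 of the 39 windows, or 5.13%, against 7.26% of all 35116 promoter windows. These were 1 of the 2 windows of ANXA6, with the motif beginning at -50 from the start, and 1 of the 2 windows of ANXA4, with the motif at -216. The AP-1 element stood in 12.8% of member windows, among them that of ANXA2 at -127, against 7.71% of all windows. The TATA box stood in 35.9% of member windows against 11.5% of all windows, and 5 of its 13 genes were measured. Windows of measured members had a median GC content of 62%, against 52.3% for members that were not measured and 58.7% for all promoters. These matches describe letters in a window, and binding was not measured.

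Of the 31 genes 19 were measured, 10 of 19 in the S100 family and 9 of 12 among the annexins. The other members were silent or at trace level in both libraries. S100A8 and S100A9, whose products form the neutrophil protein calprotectin, had 0 counts in both libraries, as did S100A12, another neutrophil gene, and S100A7, the skin protein psoriasin. S100B of glia, S100G, the calcium carrier calbindin-D9k, and S100Z also had 0 counts in both. A count of 0 allows up to 3 counts, which is 0.151 CPM in the library labelled Ad-Bmal1 and 0.148 CPM in the library labelled Ad-GFP, for counting error only.

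The 5 trace members had few counts, and the intervals given for them held 1. S100A14, an epithelial gene, had 1 count in each library. S100P, known from placenta, and ANXA10, known from stomach, each had 1 count in the library labelled Ad-Bmal1 and 0 in the library labelled Ad-GFP. ANXA13, known from intestine and kidney, had 4 counts in the library labelled Ad-Bmal1 and 2 in the library labelled Ad-GFP, a ratio of 2.05 (0.293 to 22.6). ANXA8 had counts of 14 and 19 in the libraries labelled Ad-Bmal1 and Ad-GFP, and its copy ANXA8L1, whose transcript is 99.4% identical over 2174 bases, had 5 and 13. Their summed counts had a ratio of 0.608 (0.325 to 1.11), whose interval held 1.

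Among the measured members the levels ran over a wide range, and S100A6 stood at the top. Levels between genes are compared as CPM per kilobase of the longest annotated coding transcript, which need not be the one used in these cells. S100A6, also called calcyclin, had 2276 CPM per kilobase in the library labelled Ad-Bmal1 and 2456 in the library labelled Ad-GFP. ANXA2 followed with 630.1 CPM per kilobase in the library labelled Ad-Bmal1 and 782 in the library labelled Ad-GFP. S100A11, a partner of annexin A1, had 640.1 CPM per kilobase in the library labelled Ad-Bmal1 and 658 in the library labelled Ad-GFP, so this pair stood in opposite order in the 2 libraries. ANXA5, the phosphatidylserine binder used to stain dying cells, came next with 523 and 551 CPM per kilobase in the libraries labelled Ad-Bmal1 and Ad-GFP.

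Below these 4 genes stood S100A16 and S100A10, with 319.6 and 249.6 CPM per kilobase in the library labelled Ad-Bmal1 against 383 and 244 in the library labelled Ad-GFP. The same 6 genes led when the union of all annotated exons was taken as length, though ANXA2 then took place 6. The lowest measured members were S100A5, known from olfactory neurons, with 2.42 and 3.06 CPM per kilobase in the libraries labelled Ad-Bmal1 and Ad-GFP, and ANXA9, an annexin thought not to bind calcium by itself, with 0.415 and 0.837. With 1 library per group the order of neighbours has no spread to be set against.

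**Figure D1:**
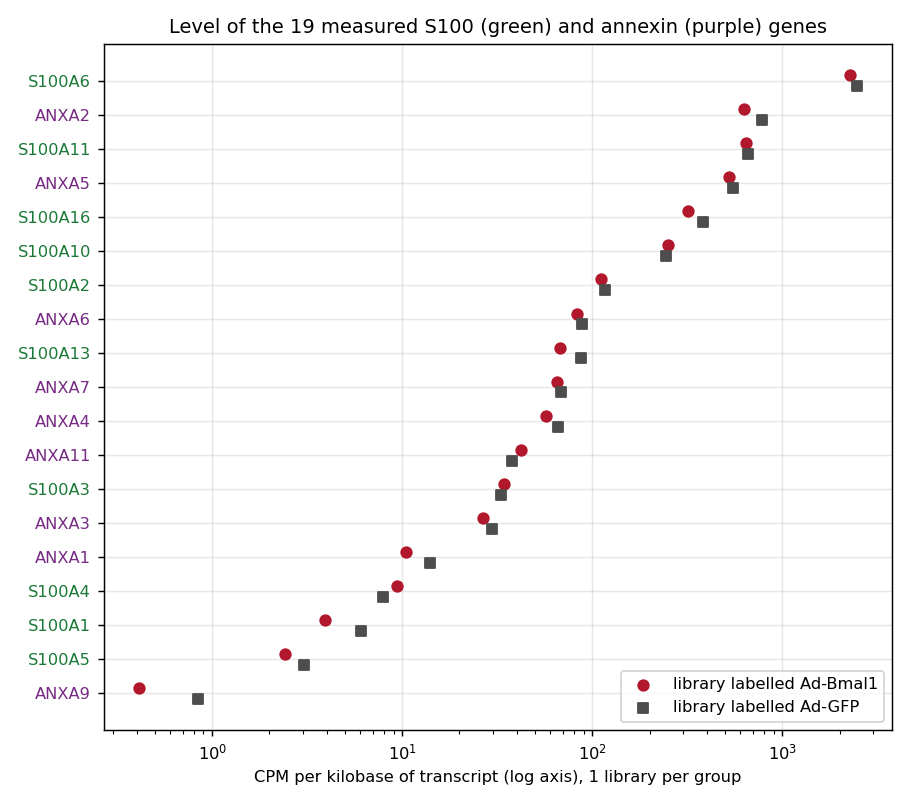
Level of each of the 19 measured members in CPM per kilobase on a log axis, with 1 point per library, the library labelled Ad-Bmal1 drawn above the library labelled Ad-GFP. S100A6 stands alone at the top, with 2276 and 2456 in the libraries labelled Ad-Bmal1 and Ad-GFP, and ANXA9 at the bottom.

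Each family drew most of its counts from a few members. S100 genes held 0.274% of all counts in the library labelled Ad-Bmal1 (exact binomial interval 0.272 to 0.277) and 0.303% in the library labelled Ad-GFP (0.3004 to 0.305). Annexins held 0.284% in the library labelled Ad-Bmal1 (0.282 to 0.286) and 0.325% in the library labelled Ad-GFP (0.322 to 0.327). S100A6 made up 55.2% of S100 counts in the library labelled Ad-Bmal1 (54.8 to 55.6) and 55.2% in the library labelled Ad-GFP (54.8 to 55.6), the same share within counting error. ANXA2 made up 36.7% of annexin counts in the library labelled Ad-Bmal1 (36.4 to 37.1) and 40.8% in the library labelled Ad-GFP (40.5 to 41.2). ANXA5 made up 32.1% in the library labelled Ad-Bmal1 (31.7 to 32.5) and 30.3% in the library labelled Ad-GFP (29.9 to 30.6).

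The difference between the libraries was small for nearly every member and mostly towards lower levels in the library labelled Ad-Bmal1. Of the 19 measured members 15 had a ratio below 1 and 4 above, while 49.6% of the 13231 measured genes lay below 1. The interval lay wholly below 1 for 11 members, namely ANXA1, ANXA2, ANXA3, ANXA4, ANXA5, ANXA6, ANXA9, S100A1, S100A6, S100A13 and S100A16, against 21.6% of all measured genes. It lay wholly above 1 for 1 member, ANXA11, against 23.8%. ANXA9, counted among the 15 and the 11, was measured through the library labelled Ad-GFP alone, where it was the higher. Most measured members are abundant. Among genes with 1000 or more counts over both libraries these shares were 27.6% below and 37.2% above, set against 9 and 1 of 15 abundant members. With a trend of the ratio on transcript length removed, the interval lay wholly below 1 for 7 members and wholly above for 1. It then lay wholly below 1 for 21.1% of all measured genes. The ratios of ANXA5, S100A2 and S100A11 moved above 1 by that removal.

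By size, 1 member was lower by at least 2-fold with an interval that left out 1, namely ANXA9, and none was higher. ANXA9 was measured through the library labelled Ad-GFP alone, where it was the higher, and its calls under this rule and the smaller rule given next carry that limit. Of all measured genes 1.74% were lower and 1.13% higher by that rule. A smaller size rule asked for a ratio of 0.8 or less, or its reciprocal or more, again with an interval that left out 1. By it ANXA1, ANXA9, S100A1 and S100A13 were lower and none was higher, where 11.2% of measured genes were lower and 11.6% higher. Among abundant genes 2 of the 15 members, ANXA1 and S100A13, were lower by the smaller rule, against 7.25% of abundant genes lower and 11.7% higher. The median log2 ratio was -0.09 over the 10 measured S100 genes and -0.15 over the 9 annexins, beside 0.00 over all measured genes and 0.03 over abundant ones. With the length trend removed these medians were -0.016 and -0.061, and the smaller rule kept ANXA1 and S100A1 alone among members. Over the 8 abundant annexins, which leave out ANXA9, the median was -0.12 without that removal.

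**Figure D2:**
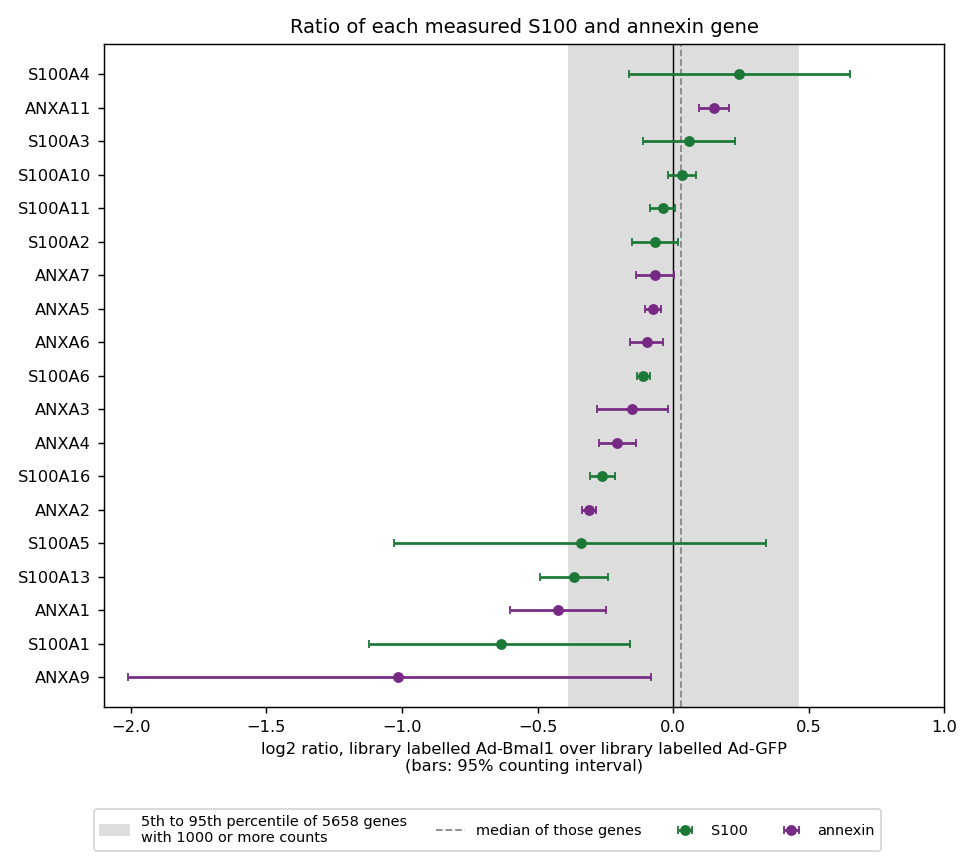
Log2 ratio of each measured member with its 95% counting interval, sorted, S100 genes in green and annexins in purple. The shaded band runs from -0.38 to 0.46, the 5th to the 95th percentile of 5658 genes with 1000 or more counts, and of the 15 abundant members only ANXA1 lies beyond it, at -0.42.

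Most measured members, though not ANXA11, have transcripts shorter than the median gene, and genes under 2 kb as a whole were slightly lower. Measured S100 genes had transcripts of 594 to 1202 bases and measured annexins of 1657 to 6965, beside a median of 3227 for all measured genes. The median log2 ratio was -0.06 over 896 measured genes under 1 kb, -0.09 over 2320 genes of 1 to 2 kb, -0.01 over 5030 genes of 2 to 4 kb and 0.09 over 4971 genes above that. The part of this trend in the family medians was not tested beyond the removal given above.

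**Figure D3:**
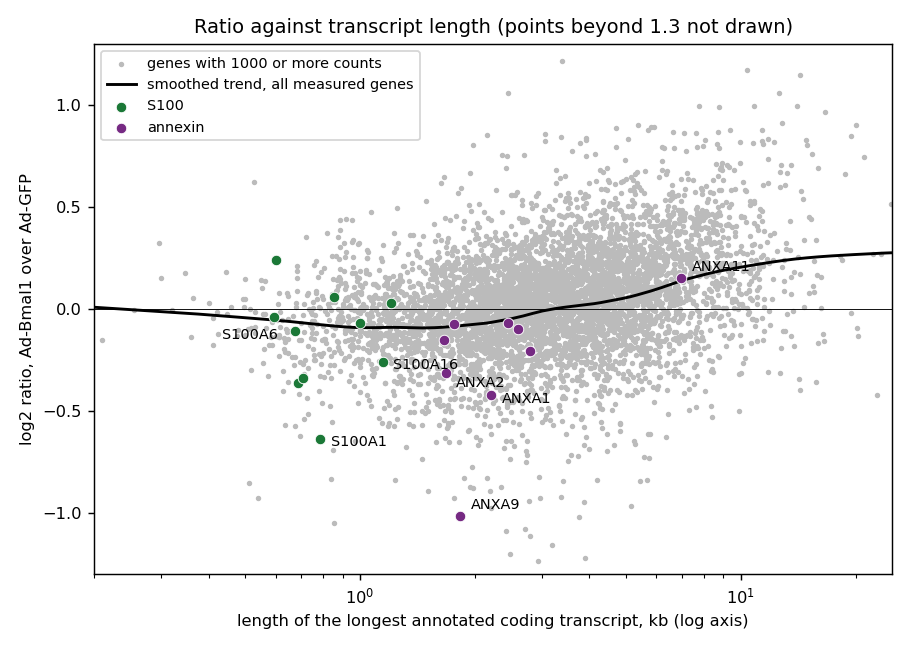
Log2 ratio against the length of the longest coding transcript on a log axis, with genes of 1000 or more counts in grey, the smoothed trend of all measured genes as a line, and all 19 measured members in colour. S100 genes lie at the short end where the line is just under 0, and ANXA11, the longest member, lies near the line at 0.15. ANXA9, S100A1, ANXA1, S100A13, S100A5, ANXA2, ANXA4 and S100A16 lie well under the line. Of these, S100A5 (0.514 to 1.33) and ANXA9 (0.263 to 1.00) had intervals that held 1 with the trend removed.

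S100A6, which binds CACYBP and annexin A11, was slightly lower in the library labelled Ad-Bmal1. Members are placed by GENCODE 29 on GRCh38. S100A6 (ENSG00000197956, chromosome 1, 153534599 to 153536244) had 30346 counts in the library labelled Ad-Bmal1 and 33504 in the library labelled Ad-GFP. The ratio was 0.927 (0.912 to 0.941), at percentile 26.7 of the abundant genes, and 0.969 with the length trend removed. An antisense transcript that overlaps it had counts of 6 and 20 in the libraries labelled Ad-Bmal1 and Ad-GFP, few beside its own. CACYBP, the calcyclin-binding protein, had counts of 5166 and 5544 in the libraries labelled Ad-Bmal1 and Ad-GFP, a ratio of 0.953 (0.918 to 0.990), and counts of S100A6 per count of CACYBP were 5.87 in the library labelled Ad-Bmal1 and 6.04 in the library labelled Ad-GFP.

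S100A10 and ANXA2, which form a tetramer at the plasma membrane, differed in their ratios. ANXA2 (ENSG00000182718, chromosome 15, 60347134 to 60402883) had 20925 counts in the library labelled Ad-Bmal1 and 26569 in the library labelled Ad-GFP, a ratio of 0.806 (0.791 to 0.821) at percentile 7.79 of abundant genes. S100A10 (ENSG00000197747, chromosome 1, 151982915 to 151994390), whose EF-hands no longer bind calcium, had 5944 counts in the library labelled Ad-Bmal1 and 5951 in the library labelled Ad-GFP, a ratio of 1.02 (0.986 to 1.06). There were 0.284 S100A10 counts per ANXA2 count in the library labelled Ad-Bmal1 and 0.224 in the library labelled Ad-GFP, a 1.27-fold difference (1.22 to 1.32, normal approximation on the log scale). With the length trend removed ANXA2 was at 0.857 and S100A10 at 1.09 (1.05 to 1.13), the member whose interval then lay above 1.

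Reads of ANXA2 can fall on its processed pseudogenes, of which ANXA2P2 is 98.4% identical to the transcript over 1020 bases. ANXA2P2 had 1314 counts in the library labelled Ad-Bmal1 and 1694 in the library labelled Ad-GFP, a ratio of 0.794 (0.738 to 0.853), close to that of ANXA2 itself. Counts of ANXA2 summed with ANXA2P1, ANXA2P2 and ANXA2P3 had a ratio of 0.805 (0.791 to 0.820), so adding the reads counted on these copies did not move the value. How reads that match several copies were counted is not given, so the sum cannot show the part of any that were left out.

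S100A11 and ANXA1 are a further pair of partners in which the annexin was the lower. ANXA1, an inhibitor of inflammation that acts through formyl peptide receptors (ENSG00000135046, chromosome 9, 73151757 to 73170393), had 456 counts in the library labelled Ad-Bmal1 and 626 in the library labelled Ad-GFP. Its ratio was 0.745 (0.659 to 0.842), at percentile 3.98 of abundant genes, and 0.780 with the length trend removed. S100A11 (ENSG00000163191, chromosome 1, 152032506 to 152047907) had 7534 counts in the library labelled Ad-Bmal1 and 7919 in the library labelled Ad-GFP, a ratio of 0.973 (0.943 to 1.005). S100A11 counts per ANXA1 count were 16.5 in the library labelled Ad-Bmal1 and 12.6 in the library labelled Ad-GFP, a 1.31-fold difference (1.15 to 1.48).

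S100A16, S100A13 and S100A1, at the end of the chromosome 1 cluster, were all lower in the library labelled Ad-Bmal1. S100A14, which lies between S100A16 and S100A13, had 1 count in each library. S100A16, a broadly expressed member (ENSG00000188643, 153606886 to 153613145), had 7257 counts in the library labelled Ad-Bmal1 and 8898 in the library labelled Ad-GFP, a ratio of 0.834 (0.809 to 0.861), and 0.889 with the length trend removed. S100A13, which helps release the growth factor FGF1 (ENSG00000189171, 153618787 to 153631360), had 923 counts in the library labelled Ad-Bmal1 and 1216 in the library labelled Ad-GFP, a ratio of 0.777 (0.712 to 0.847). S100A1, best known from heart muscle (ENSG00000160678, 153627926 to 153632039), had 61 counts in the library labelled Ad-Bmal1 and 97 in the library labelled Ad-GFP, a ratio of 0.643 (0.459 to 0.895). The span of S100A1 overlaps that of S100A13 on the opposite strand, and without the strand setting reads from a shared part cannot be told apart. Whether their exons overlap was not tested. Their summed counts had a ratio of 0.767 (0.705 to 0.834).

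Of the cluster's further members, S100A2, S100A3, S100A4 and S100A5 had intervals that held 1. S100A2, known from squamous epithelium (ENSG00000196754, 153561108 to 153567890), had 2198 counts in the library labelled Ad-Bmal1 and 2355 in the library labelled Ad-GFP, a ratio of 0.955 (0.901 to 1.01). S100A3 and S100A4 overlap on the same strand, and S100A4, also called metastasin and a binder of non-muscle myosin (ENSG00000196154, 153543613 to 153550136), had 111 counts in the library labelled Ad-Bmal1 and 96 in the library labelled Ad-GFP, a ratio of 1.18 (0.892 to 1.57). S100A3, a cysteine-rich protein of hair (ENSG00000188015, 153547329 to 153549372), had counts of 581 and 571 in the libraries labelled Ad-Bmal1 and Ad-GFP, a ratio of 1.04 (0.926 to 1.17), and the summed counts of both had 1.06 (0.953 to 1.18). S100A5 (ENSG00000196420, 153537147 to 153541765) had counts of 34 and 44 in the libraries labelled Ad-Bmal1 and Ad-GFP, a ratio of 0.791 (0.490 to 1.27). The widest of these 4 intervals was that of S100A5, which had the fewest counts.

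Among the remaining annexins the differences were small, and ANXA11 went the other way. ANXA11, which links RNA granules to lysosomes (ENSG00000122359, chromosome 10, 80150889 to 80205572), had 5791 counts in the library labelled Ad-Bmal1 and 5339 in the library labelled Ad-GFP, a ratio of 1.11 (1.07 to 1.15). It is the longest member at 6965 bases, and with the length trend removed the ratio was 1.01 (0.971 to 1.05). ANXA5 (ENSG00000164111, chromosome 4, 121667955 to 121697113) had counts of 18262 and 19689 in the libraries labelled Ad-Bmal1 and Ad-GFP, a ratio of 0.949 (0.930 to 0.968), and once that trend was taken out it was 1.01 (0.986 to 1.03). Removal of the trend turned the direction of ANXA5 and left the intervals of both genes holding 1.

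ANXA4, an annexin of epithelial membranes (ENSG00000196975, chromosome 2, 69644425 to 69827100), had 3177 counts in the library labelled Ad-Bmal1 and 3749 in the library labelled Ad-GFP, a ratio of 0.867 (0.827 to 0.909). AAK1, which overlaps it on the opposite strand, had 714 counts in the library labelled Ad-Bmal1 and 412 in the library labelled Ad-GFP, so it was higher where ANXA4 was lower. ANXA6, the annexin with a duplicated core (ENSG00000197043, chromosome 5, 151100712 to 151157882), had counts of 4248 and 4650 in the libraries labelled Ad-Bmal1 and Ad-GFP, a ratio of 0.935 (0.896 to 0.975). ANXA3 (ENSG00000138772, chromosome 4, 78551519 to 78610451) had counts of 878 and 997 in the libraries labelled Ad-Bmal1 and Ad-GFP, a ratio of 0.901 (0.822 to 0.988). The intervals of ANXA3 and ANXA6 held 1 once the length trend was removed. ANXA7, also called synexin (ENSG00000138279, chromosome 10, 73375101 to 73414076), had counts of 3170 and 3399 in the libraries labelled Ad-Bmal1 and Ad-GFP, a ratio of 0.954 (0.909 to 1.002), whose interval held 1.

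ANXA9 had the lowest level of the measured members and the ratio farthest from 1. The gene (ENSG00000143412, chromosome 1, 150982017 to 150995634) had 15 counts in the library labelled Ad-Bmal1 and 31 in the library labelled Ad-GFP, a ratio of 0.495 (0.248 to 0.945), which is 2.02 when turned to the library labelled Ad-GFP over the library labelled Ad-Bmal1. The ratio lay just inside the 2-fold rule, and with the length trend removed it was 0.524 (0.263 to 1.00), outside it.

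The S100 genes of chromosome 1 had a median ratio close to that of the genes around them. All 15 of them lie between 151982915 and 153632039, a span of 1.65 Mb that also holds the keratinocyte genes of the epidermal differentiation complex. None of the 71 other annotated genes inside that span was measured. In a window that adds 500 kb on each side, 24 other genes were measured and their median log2 ratio was -0.11, with 6 intervals wholly above 1 and 9 below. The 10 measured S100 genes there had a median of -0.09, with 0 intervals above 1 and 4 below. Next to S100A1 the RNA export factor gene CHTOP had a ratio of 1.205 (1.13 to 1.28) and SNAPIN, a SNARE-associated gene, 0.778 (0.702 to 0.862), so adjacent genes lay on both sides of 1. The neighbours named here were picked for position.

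**Figure D4:**
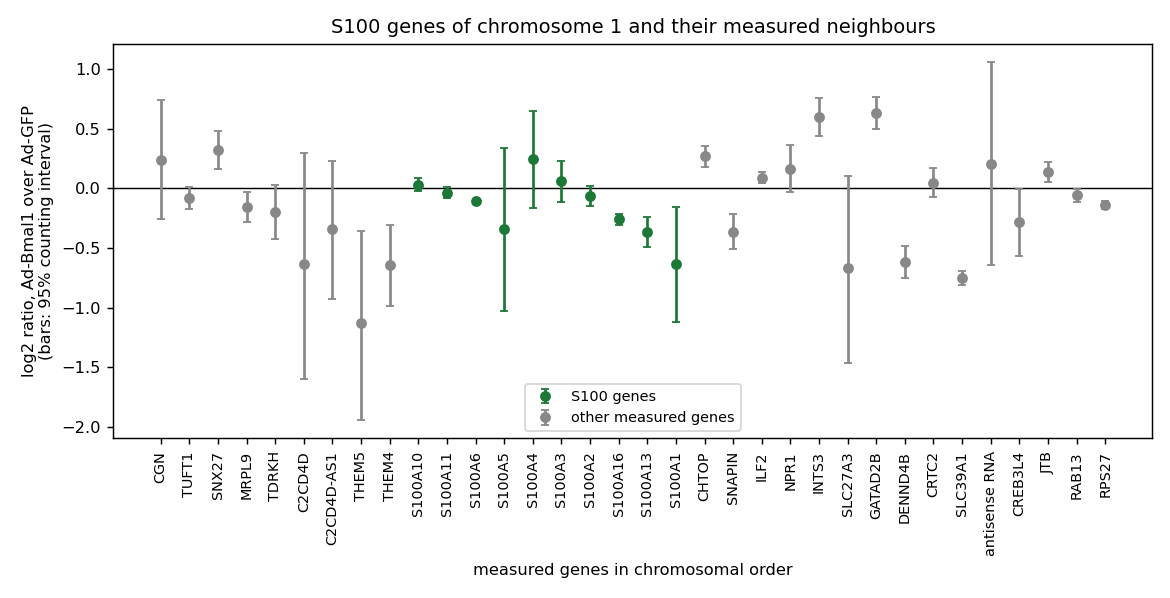
Log2 ratio with 95% counting interval of every measured gene in the window around the S100 genes of chromosome 1, in chromosomal order and not to distance, with S100 genes in green. From S100A2 to S100A1 the measured genes step down from -0.07 to -0.64, while genes on either flank scatter from -1.13 to 0.63. The intervals of S100A16, S100A13 and S100A1 overlap, and reads from a part shared by S100A13 and S100A1 cannot be told apart without the strand setting.

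Partners and receptors of the families differed in both directions. Of 34 listed genes 27 were measured, 15 with a ratio above 1 and 12 below, with a median log2 ratio of 0.12. Beside this, 49.6% of all measured genes lay below 1, with a median of 0.003. PLAT, tissue plasminogen activator, which annexin A2 binds at the cell surface, had 829 counts in the library labelled Ad-Bmal1 and 1792 in the library labelled Ad-GFP, a ratio of 0.473 (0.435 to 0.514). FPR1, a formyl peptide receptor bound by annexin A1, had 57 counts in the library labelled Ad-Bmal1 and 21 in the library labelled Ad-GFP, a ratio of 2.78 (1.66 to 4.82). These were the 2 genes of the list past the 2-fold rule, by which 1.13% of all measured genes were higher and 1.74% lower. The other formyl peptide receptors were at 0 to 2 counts.

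A few further partners are named after their values were seen. AHNAK, a giant scaffold that binds the annexin A2 and S100A10 complex, had 9811 counts in the library labelled Ad-Bmal1 and 6349 in the library labelled Ad-GFP, a ratio of 1.58 (1.53 to 1.63). MYH9, the non-muscle myosin heavy chain bound by S100A4, had counts of 72173 and 57283 in the libraries labelled Ad-Bmal1 and Ad-GFP, a ratio of 1.29 (1.27 to 1.303). HLTF, a chromatin remodeller that binds the same complex as AHNAK, had counts of 290 and 466 in the libraries labelled Ad-Bmal1 and Ad-GFP, a ratio of 0.637 (0.548 to 0.739). AGER, the receptor RAGE for secreted S100 proteins, had counts of 39 and 35 in the libraries labelled Ad-Bmal1 and Ad-GFP, a ratio of 1.14 (0.704 to 1.85), and TLR4, the receptor for S100A8 and S100A9, had 2 and 5.

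Among related lists DOC2A, of the proteins with C2 domains, was the gene past the 2-fold rule, by which 1.13% of all measured genes were higher. The splits below stand beside 49.6% of all measured genes with a ratio below 1. Of 26 measured plasma membrane repair genes 11 had a ratio above 1 and 15 below, with a median log2 ratio of -0.05. The caveolar coat gene CAVIN1 had counts of 17853 and 18711 in the libraries labelled Ad-Bmal1 and Ad-GFP, a ratio of 0.976 (0.956 to 0.997), and the calpain gene CAPN2 a ratio of 0.925 (0.900 to 0.951). Of 28 measured EF-hand genes outside the S100 family 11 were above 1 and 17 below, with a median of -0.09. The pair with most counts lay on opposite sides of 1, with a ratio of 0.965 (0.945 to 0.986) for the calmodulin gene CALM3 and 1.37 (1.34 to 1.40) for the matrix gene SPARC. Of 23 measured C2 domain genes 13 were above 1 and 10 below, with a median of 0.07, and DOC2A had 21 counts in the library labelled Ad-Bmal1 and 8 in the library labelled Ad-GFP. Its ratio was 2.69 (1.14 to 7.01), and it was measured through the library labelled Ad-Bmal1 alone. None of the 7 fused-type S100 genes, such as the skin barrier gene FLG, was measured.

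Markers of myeloid and squamous cells, where several of the silent members are known, were mostly at 0. Of 14 myeloid markers 8 were at 0 in both libraries, among them PTPRC, MPO and CSF3R, and their summed level was 93.7 CPM in the library labelled Ad-Bmal1 and 56.7 in the library labelled Ad-GFP. VCAN, a matrix gene, made up 72.9 CPM of this sum in the library labelled Ad-Bmal1 and 35.0 CPM in the library labelled Ad-GFP. CSF1R was the other measured marker of this list. It had 20.5 CPM in the library labelled Ad-Bmal1 and 21.4 CPM in the library labelled Ad-GFP, a ratio of 0.962 (0.838 to 1.10). Of 14 squamous keratinocyte markers 11 were at 0 in both, among them KRT5, KRT14 and TP63, with summed levels of 87.9 CPM in the library labelled Ad-Bmal1 and 91.3 in the library labelled Ad-GFP. KRT10 and SFN, which had most counts in that list, gave ratios of 0.953 (0.867 to 1.05) and 0.947 (0.859 to 1.04). Fibroblast markers summed to 102 CPM in the library labelled Ad-Bmal1 and 79.9 in the library labelled Ad-GFP, with 5 of 10 measured. The collagen gene COL1A1 made up 84.8 CPM of this sum in the library labelled Ad-Bmal1 and 63.4 CPM in the library labelled Ad-GFP. Endothelial markers summed to 5.30 and 8.58 CPM in the libraries labelled Ad-Bmal1 and Ad-GFP, with 3 of 9 measured. The part of other cell types in the members' ratios was not tested.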

How the data were processed

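Sample titles gave the groups, 1 library each of HK-2 cells. Raw counts per Ensembl gene were deposited by the authors, with no normalisation visible in their whole numbers. HISAT2 and GRCh38 (hg38) are named in the submitters' processing notes, and paired reads of 150 bp from polyadenylated RNA in the labels' protocols. How reads were counted, with which strand setting and annotation, is not given in the sources used here.

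Scaling used TMM (edgeR 4.0.16, R 4.3.3), with factors of 0.988 for the library labelled Ad-Bmal1 and 1.01 for the library labelled Ad-GFP, so that 1 CPM was 19.8 counts in the library labelled Ad-Bmal1 and 20.3 in the library labelled Ad-GFP. A quasi-likelihood test needs replicates and was not run, so there is no p-value and no SD. Ratios carry exact 95% conditional binomial (Clopper-Pearson) intervals and shares exact binomial ones. Reads were not deduplicated by molecular identifiers, so intervals and floors cover counting error only. GENCODE 29 gave symbols, coordinates and lengths and held 99.5% of identifiers. Members and gene lists were chosen with earlier results of these data known. All members are named, and from each other list the genes past 2-fold or, with none, the 2 with most counts. CACYBP, AHNAK, MYH9, HLTF, AGER, TLR4, S100PBP and the chromosome 1 neighbours were named outside that rule, after their values were seen. Simulated counts, with 200 genes changed by known folds, were used to check the interval and size steps.

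The alternatives tried were scaling by totals, by DESeq2 1.42.0, by upper quartile and by totals that left out mitochondrial genes and the 20 with most counts, protein-coding genes alone, copies summed, a lowess trend on length removed (fraction 0.3, statsmodels 0.14.6), no filter, a 10 CPM minimum, a 1.5-fold size and an interval wholly beyond 2-fold.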

Additional observations from a re-analysis of the deposited data

How the results depend on the processing

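The count of 1 member past 2-fold (ANXA9) was the same under the other scalings, protein-coding genes alone, copies summed and no filter. It was 0 with the length trend removed (2.68% of all measured genes, against 2.86%), 0 under a minimum of 10 CPM, which leaves ANXA9 out (0.705%), 0 with an interval wholly beyond 2-fold (0.386%), and 2 at a size of 1.5-fold (9.30%). The count of 4 members past the smaller size rule was 4 or 5 under the other scalings, 2 with the length trend removed and 2 at 10 CPM, where 21.1% and 22.7% of all genes passed, against 22.8%. ANXA2 was the added member, at 0.787 under total counts. The median log2 ratio of the annexins was -0.061 with the length trend removed, against -0.15, and that of the S100 genes -0.016, against -0.09. The cause of the trend was not tested. The median of all measured genes moved by at most 0.04 between scalings.

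Of 133 ratios over 19 members and 7 settings, 1 whose interval left out 1 changed direction, that of ANXA5, at 1.007 with the length trend removed. S100A2 and S100A11, whose intervals held 1, were then at 1.02 and 1.01, and S100A10, whose interval also held 1, was at 0.998 under total counts. For 18 of the 133 the interval changed between leaving out and holding 1. The number of members with intervals below 1 was 12 to 14 under the other scalings, against 11, while the share of all measured genes was 22.2% to 25.6%, against 21.6%. Ratios that moved beyond their main counting interval numbered 10. Those of ANXA11 and S100A10 with the length trend removed were among these and also among the 18. The intervals of ANXA7, S100A2 and S100A11 held 1 under TMM and lay below 1 under total counts, at ratios of 0.932, 0.932 and 0.950. No paired analysis was possible because each group has 1 library. Depth limited members under 100 counts, where intervals span a factor of more than 1.5.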

Other observations

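Pairs that bind as proteins are given here by their counts, without explanation. S100A6 counts per ANXA11 count were 5.24 in the library labelled Ad-Bmal1 and 6.28 in the library labelled Ad-GFP, a ratio of 0.835 (0.802 to 0.869). This pair joins a short transcript of 673 bases to the longest member at 6965 bases. With the length trend removed the ratio of S100A6 was 0.969 (0.954 to 0.984) and that of ANXA11 1.01 (0.971 to 1.05), so they lay closer together. S100A11 counts per ANXA6 count were 1.77 in the library labelled Ad-Bmal1 and 1.70 in the library labelled Ad-GFP, a ratio of 1.04 (0.988 to 1.10) whose interval held 1.

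Among marker genes that are no members, VCAN, a matrix proteoglycan also made by monocytes, had 1445 counts in the library labelled Ad-Bmal1 and 710 in the library labelled Ad-GFP. THY1, a fibroblast surface gene, had 33 and 8 counts, and the endothelial genes ENG and TIE1 had 53 and 114, and 7 and 28, in the libraries labelled Ad-Bmal1 and Ad-GFP. By ratio THY1 was at 4.22 (1.91 to 10.6) and TIE1 at 0.256 (0.0943 to 0.599). THY1 was measured through the library labelled Ad-Bmal1 alone and TIE1 through the library labelled Ad-GFP alone, each where it was the higher. S100PBP, which binds S100P but is no S100 gene, had 200 counts in the library labelled Ad-Bmal1 and 235 in the library labelled Ad-GFP, a ratio of 0.871 (0.718 to 1.06).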
